A study of Mus musculus with 24 samples.

Results

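Mlx is a basic helix-loop-helix leucine zipper protein and the shared partner of the glucose-responsive factors MondoA (gene Mlxip) and ChREBP (gene Mlxipl), with which it binds paired E-boxes called carbohydrate response elements. The thioredoxin-interacting protein gene Txnip and the arrestin-domain gene Arrdc4 are the best known targets of MondoA and Mlx in fibroblasts. The Mlx network runs parallel to the Myc network, whose dimers bind single E-boxes. The comparison described here set immortalized mouse embryonic fibroblasts (MEFs) labelled MlxKO against immortalized MEFs labelled WT, 3 libraries each. Its members were all genes that reached a counts-per-million (CPM) value of at least 1 in at least 3 of the 12 libraries of immortalized cells, which kept 12880 of 41710 genes.

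The series held 24 libraries of embryonic fibroblasts, 12 from primary and 12 from immortalized cells, in 4 genotypes with 3 libraries each: WT, MlxKO, MycKO and the double knockout (DKO). The cells came from pooled embryos that carried floxed alleles of Mlx, of Myc or of both, and 2 copies of a tamoxifen-activated Cre recombinase gene driven by the ROSA26 promoter. Immortalization used 72 h of a lentivirus that carried the SV40 T antigen, which binds p53 and Rb, together with a blasticidin resistance gene. The cells were selected in blasticidin at 1 µg/mL for 5 days and then at 2 µg/mL for 10 days. All immortalized groups shared these treatments, and the primary cells had neither. The knockout cells had been exposed to 500 nM 4-hydroxytamoxifen (4OHT) to excise the floxed exons, while immortalized WT cells were floxed cells kept without 4OHT. The MlxKO and WT groups therefore differed in 4OHT exposure as well as in Mlx. Nothing in the labels tied the 3 libraries of a group to separate derivations of the line, so they are not treated here as independent lines. The WT libraries differed from each other, as described below. The authors describe 3 WT lines, with floxed Myc, Mlx or both, and the labels do not say which gave the WT libraries. Effects of the line, of its floxed alleles or of 4OHT therefore cannot be told apart from the loss of Mlx. The p-values measure only the spread between these libraries.

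The 6 libraries held 17541112 to 18938091 reads on genes, and a count of 3 reads corresponded to 0.145 to 0.183 CPM. Libraries are named below by the numbers in their column headings, WT 2, 3 and 4 and MlxKO 5, 6 and 7. WT library 4 stood apart from the other WT libraries: across the tested genes its log2 values correlated at 0.950 and 0.943 (Pearson r) with WT 2 and WT 3, which correlated at 0.992 with each other, while the MlxKO libraries correlated at 0.989 to 0.995. In WT library 4, 1376 genes lay more than 1 log2 unit from the mean of the other WT libraries. The libraries also differed in sex-linked transcripts. Xist, the RNA of the inactive X chromosome, stood at 2114, 1574 and 549.7 CPM in WT and 266, 254 and 238 CPM in MlxKO, and Ddx3y, an RNA helicase gene of the Y chromosome, at 6.56, 4.61 and 106 CPM in WT and 56.8, 42.9 and 43.7 CPM in MlxKO. WT libraries 2 and 3 were thus high in Xist and low in Ddx3y, and WT library 4 lay nearer to the MlxKO libraries in Ddx3y. Results below are against all 3 WT libraries, with values against WT 2 and 3 and against WT 4 alone beside many of the gene groups and where a named gene lost its call. Values of single libraries are in the order WT 2, 3 and 4 and MlxKO 5, 6 and 7. All 13 fibroblast markers passed the filter, with summed levels of 20146 to 27371 CPM in WT and 15444 to 18796 CPM in MlxKO. Of 13 macrophage markers, 10 stayed under 1 CPM in all 6 libraries, among them Ptprc, Laptm5, Tyrobp and Lyz2, and the summed levels were 7.55 to 8.7 CPM in WT and 10.2 to 12.2 CPM in MlxKO.

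The targeted gene was lower in the cells labelled MlxKO but was not absent. Mlx, on chromosome 11 of GRCm39 (bases 100978080 to 100983043, plus strand), stood at 25.1, 23.5 and 20.5 CPM in WT and 17, 12.4 and 12.1 CPM in MlxKO. The groups did not overlap (log2 fold change -0.71 ± 0.16 (SE), adjusted p = 0.00471). The log2 fold change was -0.78 against WT 2 and 3, and -0.55 with an adjusted p of 0.0508 against WT 4 alone, which missed the threshold of 0.05. The excised part covers the floxed exons, so reads from the remaining exons can still count toward the gene. The values are per gene, so the origin of the remaining Mlx reads was not tested. The 20 tested genes nearest to Mlx on its chromosome had a median log2 fold change of 0.13, with 4 called higher and 2 lower. Over all tested genes the median was 0.0073, with 19.1% called higher and 19.9% lower. Mlxip, which encodes MondoA, stood at 60.3, 65.4 and 73.6 CPM in WT and 59, 66.4 and 63.1 CPM in MlxKO and did not pass the test (log2 fold change -0.077 ± 0.14 (SE), adjusted p = 0.69). Mlxipl, which encodes ChREBP, did not reach the filter.

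Myc itself was not called against the 3 WT libraries, but its call depended on the WT library chosen. It stood at 48.1, 39.9 and 177 CPM in WT and 72.4, 82.8 and 79.5 CPM in MlxKO, so that the MlxKO libraries lay between WT library 4 and the other WT libraries. The log2 fold change was 0.16 ± 0.43 (SE) with an adjusted p of 0.798 against all WT libraries, 0.82 with an adjusted p of 0.00955 against WT 2 and 3, and -1.17 with an adjusted p of 0.00726 against WT 4 alone (limma). Among the 10 tested genes of the Myc network, 1 was called higher and 0 lower, against 38.9% of all tested genes called in either direction, 19.1% higher and 19.9% lower. The member called was Mxd3, a repressor of the network found in dividing cells, with a log2 fold change of 0.65 ± 0.20 (SE), adjusted p = 0.0217. It did not pass after correction for the GC content and length of transcripts (adjusted p = 0.197) or against WT 4 alone (adjusted p = 0.0789).

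**Figure D1:**
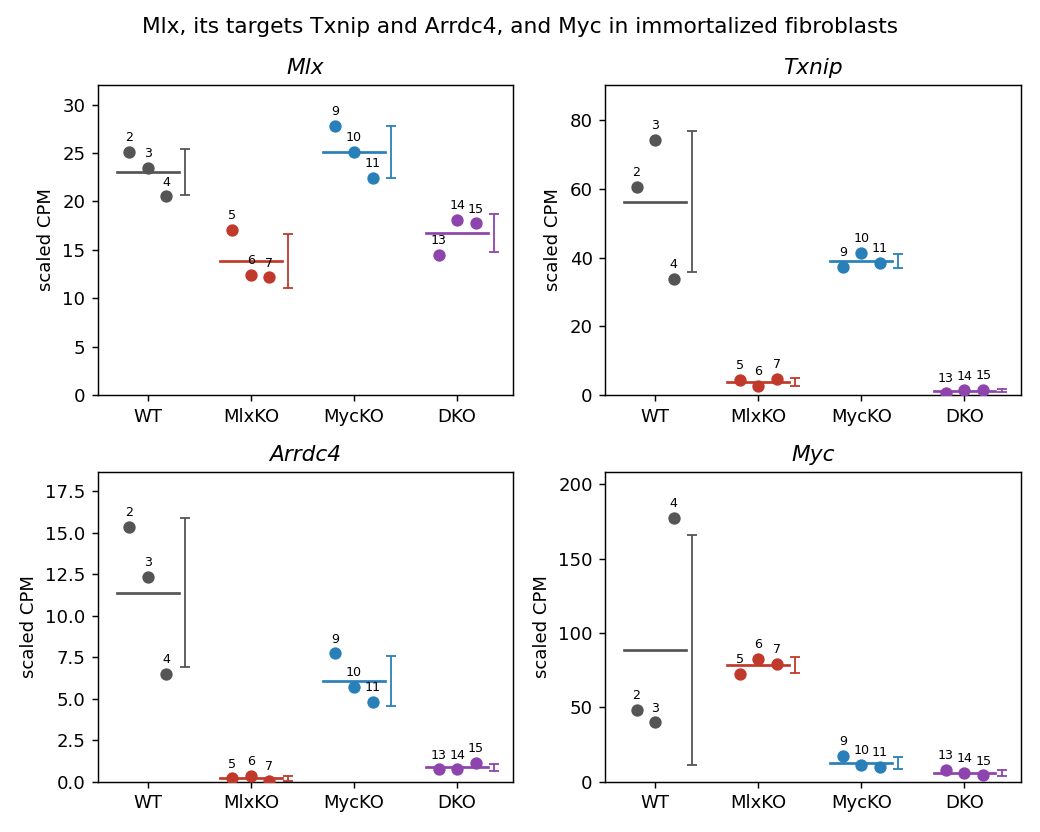
Scaled CPM (y axis, linear, from 0) of Mlx, Txnip, Arrdc4 and Myc in each immortalized library (points, numbered as in the text), with group means (horizontal lines) and SDs (bars, n = 3). Txnip and Arrdc4 were low in every MlxKO and DKO library, Mlx was lower without vanishing, and Myc in WT library 4 lay above all other libraries.

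Txnip and Arrdc4 were among the 10 largest falls of the comparison, and their promoters are shown because they carry the E-boxes to which Mlx dimers are known to bind. The sequences run 5' to 3' on the coding strand and come from RefSeq on GRCm38.p6, a build older than that of the read counts. The Txnip stretch covers chr3:96557807-96557956 (plus strand) and the Arrdc4 stretch, further upstream, chr7:68749339-68749488 (minus strand). Capitals mark the half-sites of a carbohydrate response element in Txnip and an E-box (CACGTG) in Arrdc4.
Txnip: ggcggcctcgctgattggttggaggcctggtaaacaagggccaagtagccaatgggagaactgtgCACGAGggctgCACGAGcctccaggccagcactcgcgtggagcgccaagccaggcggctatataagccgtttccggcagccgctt
Arrdc4: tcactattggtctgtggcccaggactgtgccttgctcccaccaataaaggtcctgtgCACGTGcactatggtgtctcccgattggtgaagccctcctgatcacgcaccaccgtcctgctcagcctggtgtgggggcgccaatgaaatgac
In the 250 bases before the start site, searched on both strands, the paired motif (CACGNG, 5 free bases, CACGNG) was present in 14 of 27025 genes listed (0.0518%), and the single E-box CACGTG in 6.86%. Both motifs read the same class of half-site, so a paired site can also hold an E-box. Of 8 tested genes with the paired motif, 2 were called lower (25%), Txnip and Fnip1, and 1 higher (12.5%), Nfkb2. Fnip1 and Nfkb2 were named after their values were seen. Fnip1 did not pass after correction for GC content and length (adjusted p = 0.106). Of 999 tested genes with an E-box, 18.2% were called higher and 23.8% lower. The shares over all tested genes were 19.1% higher and 19.9% lower.

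Txnip, whose product binds thioredoxin and restrains glucose uptake, stood at 60.7, 74.3 and 33.8 CPM in WT and 4.4, 2.55 and 4.54 CPM in MlxKO. Every MlxKO library lay below every WT library, with a log2 fold change of -3.52 ± 0.27 (SE), adjusted p = 9.07e-06. Arrdc4, an arrestin-domain protein that also restrains glucose uptake, stood at 15.3, 12.3 and 6.51 CPM in WT and 0.194, 0.35 and 0.051 CPM in MlxKO, and the MlxKO libraries held only 4, 7 and 1 reads. The Arrdc4 groups did not overlap either (log2 fold change -3.3 ± 0.26 (SE), adjusted p = 1.02e-05). Both calls held against WT 2 and 3, against WT 4 alone and after GC and length correction, with Txnip at -3.85, -2.88 and -3.56 and Arrdc4 at -3.63, -2.66 and -3.18 on the log2 scale. Both genes were also lower in libraries that this comparison did not use. Txnip averaged 39 ± 2.13 CPM (SD, n = 3) in immortalized MycKO cells, against 1.16 ± 0.423 CPM in the double knockout, and 122 ± 6.74 CPM in primary WT and 6.1 ± 0.958 CPM in primary MlxKO cells. Arrdc4 was 6.07 ± 1.5 CPM in MycKO cells, against 0.86 ± 0.212 CPM in the double knockout, and 19.7 ± 1.62 CPM in primary WT and 2.15 ± 0.505 CPM in primary MlxKO cells.

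Few other genes listed as targets of the network were called. Of 13 targets tested, 4 were called lower and 0 higher (30.8% called in all against 38.9% of all tested genes). The median log2 fold change was -0.12 over the list against 0.0073 over all genes tested. The median of the list was 0.021 against WT 4 alone. Beside Txnip and Arrdc4 these were 2 fatty acid enzymes, the elongase gene Elovl6 (log2 fold change -0.63 ± 0.17 (SE), adjusted p = 0.0116) and the desaturase gene Scd1 (log2 fold change -0.54 ± 0.14 (SE), adjusted p = 0.00984). Elovl6 did not pass after GC and length correction (adjusted p = 0.145), and Scd1 did not pass against WT 4 alone (adjusted p = 0.266). Arrdc2 and Arrdc3, relatives of Arrdc4, were not called. Arrdc3 stood at 46.1, 45.4 and 36 CPM in WT and 52.2, 31.5 and 35.9 CPM in MlxKO, with a log2 fold change of -0.12 that turned to 0.47 after GC and length correction (adjusted p = 0.034). Klf10, Pfkfb3, Fasn and Acaca, which encode a glucose-responsive repressor, a glycolytic regulator and the enzymes that open fatty acid synthesis, had log2 fold changes of 0.21, -0.29, 0.15 and -0.042 and did not pass. Pklr, Fgf21 and G6pc1 did not reach the filter.

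Across all tested genes, 5014 were called (limma on log2(CPM + 1), Benjamini-Hochberg adjusted p under 0.05, two-sided), 2457 higher and 2557 lower in MlxKO. The called genes had a median absolute log2 fold change of 0.65, and 866 of them changed by at least 1 log2 unit, 573 upward and 293 downward. Against WT 2 and 3, 6033 genes were called (46.8%, with 23.1% of all tested genes higher and 23.8% lower), and against WT 4 alone, 5671 (44%). The same direction was called against both kinds of WT library for 3086 genes (24%) and the opposite direction for 332. The deposited scaling held the MlxKO libraries at a lower sum of CPM than the WT libraries. With every library scaled to the same total, the median over all genes rose to 0.16 and 69.95% of the called genes were higher, compared with 49% as deposited.

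The log2 fold changes rose with the GC content of the transcripts. Across 12863 genes, the log2 fold change correlated with GC content at a Spearman rho of 0.58, a value over genes that share the same 6 libraries. In the fifth of genes with the lowest GC content the median log2 fold change was -0.45, and in the fifth with the highest 0.42. Library by library, the deviation from the mean of the 12 libraries correlated with GC content at -0.47, -0.26 and -0.48 in WT 2, 3 and 4 and at 0.091, 0.53 and 0.43 in MlxKO 5, 6 and 7. After a correction for GC content and length, 3365 genes were called (26.2%, with 12.8% of the genes higher and 13.4% lower). Of these, 2380 were also called in the same direction without it. In all, 1829 genes were called the same way against both kinds of WT library and after the correction. The part of base composition in the group differences was not tested.

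The gene group with the largest shift was that of antiviral and antigen-presentation genes. Type I interferons signal through the kinases Jak1 and Tyk2 to transcription factors that bind the interferon-stimulated response element in the promoters of interferon-stimulated genes (ISGs). The promoters of Isg15 and Oas3 are shown as examples, 150 bases before the start site from RefSeq on GRCm38.p6, both on the minus strand (chr4:156200819-156200968 and chr5:120777660-120777809), with the motif (GAAA, 2 free bases, GAAA) in capitals.
Isg15: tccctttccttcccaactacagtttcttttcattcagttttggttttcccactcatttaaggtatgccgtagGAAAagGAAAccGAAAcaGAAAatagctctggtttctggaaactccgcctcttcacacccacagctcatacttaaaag
Oas3: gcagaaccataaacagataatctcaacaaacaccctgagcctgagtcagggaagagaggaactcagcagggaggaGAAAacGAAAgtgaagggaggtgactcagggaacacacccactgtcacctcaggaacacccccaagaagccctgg
The motif, searched on both strands, lay in the 250 bases before the start site of 15 of 30 ISGs that had a listed promoter (50%), and in 3.46% of all genes listed. Of 323 tested genes with the motif, 32.2% were called higher and 15.8% lower, against 19.1% and 19.9% of all tested genes. The 323 include ISGs of the list, which was chosen with earlier results of these data known.

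Of 44 ISGs tested, 34 were called higher and 1 lower in MlxKO, with a median log2 fold change of 2.37. That was 79.5% called in all against 38.9% of all tested genes. The level of the group was not the same in all WT libraries. The median log2(CPM + 1) over the ISGs was 5.82, 6.05 and 2.15 in WT 2, 3 and 4 and 7.19, 6.94 and 7.06 in MlxKO 5, 6 and 7, and it ranged from 5.81 to 6.28 in the MycKO and DKO libraries. WT library 4 was below both other WT libraries for 43 of the 44 genes, and for 41.5% of all tested genes. Against WT 2 and 3, 36 ISGs were still called higher and 1 lower, but the median fell to 1.08. Against WT 4 alone the counts were 42 and 0 and the median 5.1. After GC and length correction they were 28 and 1, with a median of 2.48.

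Irf9, a subunit of the complex that binds the response element, stood at 122, 126 and 16.8 CPM in WT and 138, 123 and 132 CPM in MlxKO. The MlxKO libraries were close to WT 2 and 3 and far above WT 4, and Irf9 was not called against all WT libraries (adjusted p = 0.153) or against WT 2 and 3 (adjusted p = 0.524). Ifih1, a sensor of double-stranded RNA, was likewise far above WT 4 alone, at 159.9, 143 and 16.3 CPM in WT and 226, 167 and 175 CPM in MlxKO, and did not pass (adjusted p = 0.0966). Stat2 was called at 1.81 ± 0.61 (SE, log2), and at 0.77 against WT 2 and 3, but not after GC and length correction (adjusted p = 0.0694). The transcription factor genes moved further. Irf7, which amplifies interferon production, stood at 61.5, 92.9 and 0.73 CPM in WT and 355, 339 and 343 CPM in MlxKO (log2 fold change 4.0 ± 1.05 (SE), adjusted p = 0.0112), and Irf1 at 20.5, 26.6 and 11.2 CPM in WT and 49.3, 49.1 and 53.2 CPM in MlxKO (log2 fold change 1.41 ± 0.23 (SE), adjusted p = 9.68e-04). For both, all MlxKO libraries lay above all WT libraries.

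Among the effectors, the antiviral enzymes and sensors rose most. Oas3, an oligoadenylate synthetase that activates RNase L, stood at 7.09, 4.38 and 0.0609 CPM in WT and 114, 106 and 92.9 CPM in MlxKO. All MlxKO libraries lay above all WT libraries (log2 fold change 4.87 ± 0.54 (SE), adjusted p = 1.23e-04), and the log2 fold change was 3.99 against WT 2 and 3. Oas2, of the same family, was at 11.8, 10.8 and 0.122 CPM in WT and 148, 110.3 and 104 CPM in MlxKO, and Zbp1, a sensor of Z-form nucleic acid, at 5.8, 8.43 and 0.243 CPM in WT and 94.6, 82.3 and 76.2 CPM in MlxKO. Their log2 fold changes were 4.44 ± 0.68 and 4.3 ± 0.54 (SE), and 3.29 and 3.41 against WT 2 and 3. Ifi27l2a, a mitochondrial interferon-induced protein, stood at 3.28, 6.27 and 0.122 CPM in WT and 63.6, 85.2 and 88.4 CPM in MlxKO, and Isg15, the ubiquitin-like modifier, at 83.9, 140.4 and 3.35 CPM in WT and 328, 364 and 369 CPM in MlxKO. All 5 genes separated the MlxKO from the WT libraries without overlap, as did 49.1% of all tested genes, 23.9% upward and 25.2% downward. Their distance to WT 4 was wider than to WT 2 and 3 in each case. The guanylate-binding protein gene Gbp9 and the oligoadenylate synthetase gene Oas1g, outside the list but among the 10 largest rises of all genes, gave 4.86 ± 0.18 and 4.2 ± 0.42 (SE). Gbp9 was at or under 0.304 CPM in every WT library, so the size of its fold change depended on the pseudocount.

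**Figure D2:**
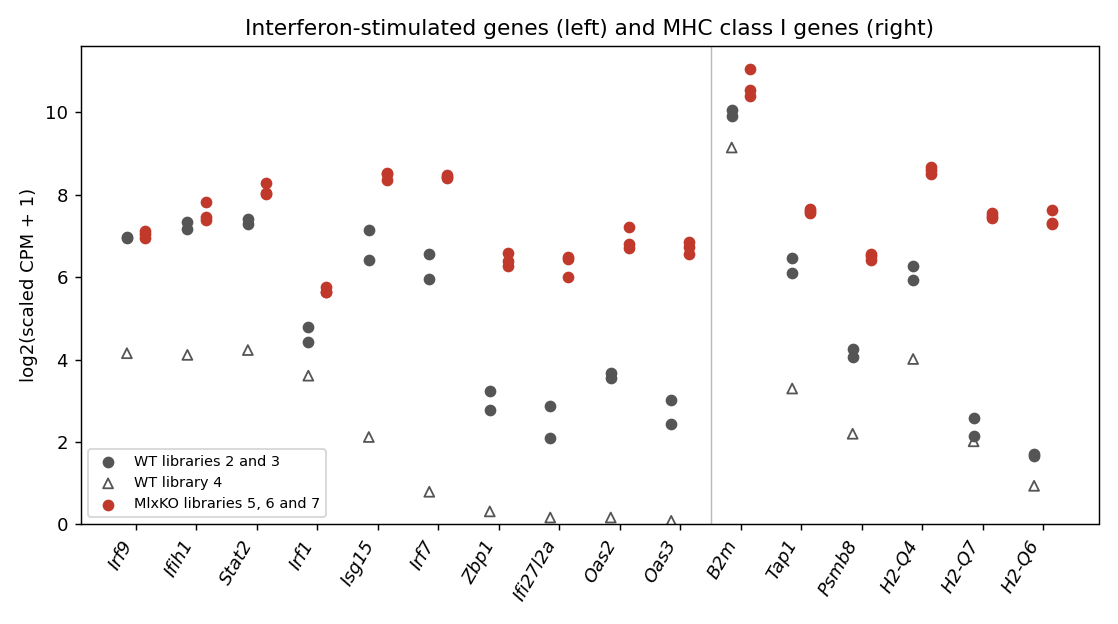
Log2(scaled CPM + 1) (y axis) of 10 interferon-stimulated genes and 6 MHC class I genes in WT libraries 2 and 3 (grey points), WT library 4 (open triangles) and MlxKO libraries (red points). For Irf9 and Ifih1 the MlxKO libraries lay beside WT 2 and 3 and only WT 4 was apart, while for Zbp1, Oas2, Oas3, H2-Q6 and H2-Q7 all WT libraries lay well below MlxKO.

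The class I major histocompatibility complex (MHC) presents cytosolic peptides, which immunoproteasome subunits cut and the transporter Tap1 and Tap2 carries into the endoplasmic reticulum. Of 16 genes of this pathway tested, 15 were called higher and 0 lower, with a median log2 fold change of 2.48. That was 93.8% called in all against 38.9% of all tested genes. The counts were 15 and 1 (median 1.86) against WT 2 and 3, 16 and 0 (median 4.01) against WT 4 alone, and 12 and 0 (median 2.31) after GC and length correction. H2-Q6 and H2-Q7, nonclassical heavy chains, had the 2 largest rises of the whole comparison. H2-Q6 stood at 2.17, 2.27 and 0.913 CPM in WT and 197, 156 and 157 CPM in MlxKO (log2 fold change 5.97 ± 0.19 (SE), adjusted p = 3.00e-09) and H2-Q7 at 3.4, 4.99 and 3.04 CPM in WT and 189, 179 and 171 CPM in MlxKO (log2 fold change 5.25 ± 0.15 (SE), adjusted p = 9.03e-10). These genes and H2-Q4 and H2-Q5 are near-identical copies of each other, so the split of reads among them is uncertain. H2-Q5 stood at 0.0586, 0.388 and 0 CPM in WT and 23.9, 25.9 and 23.8 CPM in MlxKO. The heavy chain partner B2m, beta-2-microglobulin, rose by 0.97 ± 0.24, the transporter gene Tap1 by 2.32 ± 0.58, the immunoproteasome subunit gene Psmb8 by 2.99 ± 0.40 and Nlrc5, the transactivator of class I genes, by 2.64 ± 0.43 (log2, SE). All 4 also passed against WT 2 and 3, at 0.69, 1.33, 2.33 and 1.93. Erap1, the aminopeptidase that trims peptides, was the member not called.

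The chemokine genes Ccl5 and Cxcl10, which attract T cells, moved with these groups. Ccl5 stood at 2.75, 4.05 and 0.304 CPM in WT and 40.7, 24.9 and 26.3 CPM in MlxKO and Cxcl10 at 33.6, 29.6 and 4.87 CPM in WT and 204, 143 and 162 CPM in MlxKO, and both separated the groups (3.41 ± 0.40 and 3.2 ± 0.50, log2, SE). Il1rn, the interleukin 1 receptor antagonist, went the other way at 59.9, 46.1 and 87.6 CPM in WT and 11.5, 13.7 and 12.9 CPM in MlxKO (log2 fold change -2.21 ± 0.20 (SE), adjusted p = 3.76e-05). Among 18 chemokine and cytokine genes tested, 7 were called higher and 1 lower (44.4% called in all against 38.9% of all tested genes). The counts higher and lower were 9 and 1 against WT 2 and 3, 7 and 6 against WT 4 alone, and 6 and 1 after GC and length correction.

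Outside these groups, Cd34 was among the 10 largest rises. Cd34, a sialomucin of progenitor and stromal cells, stood at 1.29, 3.0 and 1.03 CPM in WT and 66.3, 70.1 and 75.2 CPM in MlxKO (log2 fold change 4.75 ± 0.25 (SE), adjusted p = 4.06e-07). Among the genes that fell were a protocadherin and a homeobox factor. Pcdh11x, a protocadherin gene of the X chromosome, stood at 22.3, 12.2 and 18.1 CPM in WT and 0.629, 0.45 and 0.204 CPM in MlxKO and fell the most (log2 fold change -3.67 ± 0.21 (SE), adjusted p = 5.98e-07). Pitx1, a homeobox factor of the hindlimb, stood at 33.1, 33.8 and 7.91 CPM in WT and 0.532, 1.0 and 0.765 CPM in MlxKO, with WT 4 well below the other WT libraries and still above MlxKO. Cdsn, corneodesmosin, stood at 91.5, 93.4 and 42.7 CPM in WT and 4.02, 5.86 and 5.92 CPM in MlxKO. Sfrp2, a secreted Wnt antagonist, stood at 675, 948 and 123 CPM in WT and 52.5, 38 and 39 CPM in MlxKO, again with WT 4 between the other WT libraries and MlxKO. Their log2 fold changes were -3.65 ± 0.39, -3.55 ± 0.27 and -3.3 ± 0.53 (SE), and against WT 4 alone -2.34, -2.82 and -1.51. Malrd1, a regulator of bile acid signalling, fell by 2.62 ± 0.32. Commd1b, a near-copy of Commd1 whose reads are therefore uncertain, spread from 0 to 10.4 CPM among the MlxKO libraries and did not pass against WT 4 alone (adjusted p = 0.0796).

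Among genes of glucose uptake and glycolysis, more were called higher than lower. Of 26 genes of glucose uptake and glycolysis tested, 15 were called higher and 1 lower, with a median log2 fold change of 0.37. That was 61.5% called in all against 38.9% of all tested genes. The counts higher and lower came to 15 and 2 (median 0.41) against WT 2 and 3, to 11 and 1 (median 0.39) against WT 4 alone, and to 7 and 1 (median 0.24) after GC and length correction. At the entry of the pathway, the glucose transporter gene Slc2a1 stood at 118, 109 and 113 CPM in WT and 101, 122 and 118 CPM in MlxKO and the hexokinase gene Hk2 at 34.2, 31.9 and 25.5 CPM in WT and 31.4, 36.7 and 37.5 CPM in MlxKO, with the groups overlapping and adjusted p of 0.991 and 0.31. Downstream, the phosphofructokinase gene Pfkp stood at 20.3, 22.5 and 23.7 CPM in WT and 40.9, 44.1 and 39.3 CPM in MlxKO (log2 fold change 0.87 ± 0.11 (SE), adjusted p = 3.11e-04) and passed in every setting just named. The enolase gene Eno3 rose by 1.27 ± 0.22 (log2, SE) and the pyruvate kinase gene Pkm by 0.55 ± 0.13. The lactate exporter gene Slc16a3, at 6.03, 6.49 and 11.9 CPM in WT and 11.1, 19.6 and 16.8 CPM in MlxKO, passed against all WT libraries but not against WT 4 alone (adjusted p = 0.259). Ldha, which turns pyruvate to lactate, did not pass, with WT 4 at the level of MlxKO (527, 552 and 788 CPM in WT and 665, 756 and 795 CPM in MlxKO). Of 7 pentose phosphate genes, 0 were called higher and 2 lower (28.6% called in all), and after GC and length correction 1 and 0.

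Sterol genes split. Of 20 enzymes of sterol synthesis, 9 were called lower and 4 higher, with a median log2 fold change of -0.19. That was 65% called in all against 38.9% of all tested genes. With WT 2 and 3 as the reference, 6 were called higher and 7 lower (median -0.13), with WT 4 alone 3 and 11 (median -0.50), and after GC and length correction 2 and 5 (median -0.22). Hmgcs1, the synthase at the start of the pathway, stood at 364, 282 and 317 CPM in WT and 182, 165 and 188 CPM in MlxKO (log2 fold change -0.84 ± 0.12 (SE), adjusted p = 4.77e-04). All MlxKO libraries lay below all WT libraries, and the fall passed after GC and length correction. Hsd17b7, which acts late in the pathway, fell by 0.91 ± 0.12. In the opposite direction, the mevalonate-pathway enzyme genes Pmvk and Mvd rose by 1.08 ± 0.20 and 0.89 ± 0.17, of which Mvd missed the threshold after GC and length correction (adjusted p = 0.0502). Among the regulators, Insig1, which retains the sterol sensor in the endoplasmic reticulum, fell by 0.74 ± 0.15. Srebf2, the master factor of sterol genes, rose by 0.48 ± 0.12 as deposited, but its log2 fold change was -0.00025 after GC and length correction (adjusted p = 0.998). Fatty acid synthesis genes were called at a share of 40%, near the 38.9% of all tested genes. Of 15 fatty acid synthesis genes, 5 were called lower and 1 higher, among them Me1, which supplies NADPH (log2 fold change -0.53 ± 0.11 (SE), adjusted p = 0.0032), and Scd2, a desaturase (log2 fold change -0.51 ± 0.16 (SE), adjusted p = 0.0257), which did not pass against WT 4 alone (adjusted p = 0.329). Against WT 2 and 3 the counts higher and lower were 1 and 7 (median -0.25), against WT 4 alone 3 and 2 (median -0.023), and after GC and length correction 1 and 6 (median -0.25).

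Genes encoded by the mitochondrial genome were lower. All 13 protein-coding genes of the mitochondrial genome had negative log2 fold changes, and 12 were called lower, with a median of -1.31. Summed over all mitochondrially encoded genes, the libraries held 35023, 31360.4 and 32664 CPM in WT 2, 3 and 4 and 18546, 12896 and 14051 CPM in MlxKO 5, 6 and 7, so the groups did not overlap. These transcripts have a median GC content of 37.1%, below the 49.2% of all tested genes. After GC and length correction the median was -0.75 and 2 genes were called. The complex I subunit gene mt-Nd5 stood at 2214, 1634 and 1996 CPM in WT and 979, 657 and 646 CPM in MlxKO (log2 fold change -1.37 ± 0.25 (SE), adjusted p = 0.00182), with an adjusted p of 0.0566 after the correction. Among 76 nuclear genes of the respiratory chain, 17 were called higher and 3 lower (median 0.19), which was 26.3% called in all against 38.9% of all tested genes. The counts higher and lower came to 19 and 1 (median 0.21) against WT 2 and 3, to 9 and 4 (median 0.13) against WT 4 alone, and to 14 and 3 (median 0.18) after GC and length correction. The complex III subunit gene Uqcr11 stood at 3.4, 6.99 and 4.75 CPM in WT and 9.63, 24.6 and 22.5 CPM in MlxKO, and Cox5b of complex IV at 13.6, 21.6 and 10.4 CPM in WT and 28.8, 44.6 and 40.4 CPM in MlxKO. In both, MlxKO 5 was the lowest MlxKO library and the groups did not overlap (1.66 ± 0.39 and 1.3 ± 0.38, log2, SE). Mitochondrial ribosomal proteins gave 21 higher and 1 lower of 75 (median 0.18), a share of 29.3%, and after GC and length correction 18 and 2. Cytosolic ribosomal proteins gave 9 higher and 1 lower of 78, a share of 12.8%, below the 38.9% of all genes, and their median of 0.10 turned to -0.19 against WT 4 alone. The cytosolic counts after GC and length correction were 11 and 7. Rpl8 and Rpl28, both of the large subunit, rose by 1.08 ± 0.22 and 1.06 ± 0.20.

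The ATF4 program, which raises amino acid synthesis and uptake when amino acids are short, was lower in part. Of 24 genes tested, 10 were called lower and 1 higher, with a median log2 fold change of -0.15. That was 45.8% called in all against 38.9% of all tested genes. With WT 2 and 3 as the reference, 2 were called higher and 12 lower (median -0.29), with WT 4 alone 9 and 7 (median 0.11), and after GC and length correction 1 and 14 (median -0.37). Asns, asparagine synthetase, stood at 243, 200.4 and 169.5 CPM in WT and 104, 95 and 101 CPM in MlxKO (log2 fold change -1.01 ± 0.14 (SE), adjusted p = 4.19e-04), and Aldh1l2, a mitochondrial folate enzyme, at 169.8, 148 and 96.7 CPM in WT and 62.5, 56.3 and 54.4 CPM in MlxKO (log2 fold change -1.21 ± 0.18 (SE), adjusted p = 7.38e-04). All MlxKO libraries lay below all WT libraries for both. Vldlr, a lipoprotein receptor, stood at 118, 77.7 and 25.9 CPM in WT and 20.03, 16.6 and 21 CPM in MlxKO, with WT 4 near the MlxKO libraries. Ddit4, an inhibitor of mTORC1, was the member called higher, by 1.13 ± 0.20 (log2, SE).

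Cell-cycle genes showed no common direction against the 3 WT libraries. Of 47 replication genes, 8 were called higher and 9 lower (36.2% called in all), and of 37 mitosis genes, 8 and 5 (35.1%). Of all tested genes, 38.9% were called. The direction depended on the WT library. Against WT 2 and 3, 14 mitosis genes were called higher and 3 lower (median 0.21), and against WT 4 alone, 4 higher and 16 lower (median -0.33). For the replication genes these counts were 14 and 8, and 6 and 12. Replication genes had 10 and 4 and mitosis genes 5 and 0 after GC and length correction. Some single genes held in each setting. The replication origin gene Orc2 stood at 60.3, 48.3 and 76.3 CPM in WT and 42.2, 34 and 34 CPM in MlxKO and fell by 0.72 ± 0.17, and the polymerase alpha subunit gene Pola2 rose by 0.68 ± 0.12 (log2, SE). The cyclin gene Ccnd3, which acts in G1, stood at 53.9, 73.9 and 56 CPM in WT and 111, 145 and 122 CPM in MlxKO (log2 fold change 1.04 ± 0.13 (SE), adjusted p = 3.17e-04). The CDK inhibitor gene Cdkn2b stood at 29.4, 33.3 and 30.2 CPM in WT and 46.4, 69 and 65 CPM in MlxKO (log2 fold change 0.92 ± 0.17 (SE), adjusted p = 0.0022), and Ccne2, a cyclin of S phase entry, fell by 0.90 ± 0.23. All 3 passed in each of the settings. Cdkn1c, an imprinted CDK inhibitor gene, passed against all WT libraries but neither against WT 4 alone nor after GC and length correction (adjusted p = 0.153 and 0.0949). WT 4 held 22.3 CPM against 6.5 and 7.38 CPM in WT 2 and 3.

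Genes of the damage response moved both ways. Of 22 p53 targets, 6 were called higher and 6 lower (54.5% called in all against 38.9% of all tested genes), in cells that were all transduced with the SV40 T antigen. For this list the counts higher and lower were 7 and 8 against WT 2 and 3, 8 and 4 against WT 4 alone, and 5 and 4 after GC and length correction. Btg2, an antiproliferative target, stood at 155, 119 and 70.4 CPM in WT and 52.7, 51.7 and 53.1 CPM in MlxKO (log2 fold change -1.04 ± 0.22 (SE), adjusted p = 0.00348), and Bax, which permeabilizes mitochondria, rose by 0.80 ± 0.22 but did not pass after GC and length correction (adjusted p = 0.28). In DNA repair, 8 of 20 base excision and direct repair genes were called higher and 1 lower (45% called in all). Of 30 genes of homologous recombination and the Fanconi pathway, 3 were called higher and 6 lower (30%, against 38.9% of all tested genes). The median GC contents of these groups, in the same order, were 50.3% and 45.9%. After GC and length correction the base excision counts were 4 and 0 and the recombination counts 2 and 2. Against WT 2 and 3 the recombination counts were 5 and 6. The median of the recombination list depended on the WT library, at -0.15 against all WT libraries, -0.088 against WT 2 and 3 and -0.32 against WT 4 alone. Xrcc1, the scaffold of base excision repair, stood at 22.2, 26.7 and 17.5 CPM in WT and 35.8, 45.8 and 41.9 CPM in MlxKO (log2 fold change 0.88 ± 0.18 (SE), adjusted p = 0.00283). H2ax, the histone phosphorylated at breaks, stood at 75.8, 94 and 97.7 CPM in WT and 161, 205 and 198 CPM in MlxKO (log2 fold change 1.07 ± 0.13 (SE), adjusted p = 2.20e-04), and Atr, the kinase of stalled forks, at 57.3, 42.1 and 64 CPM in WT and 33.2, 25.8 and 26.6 CPM in MlxKO (log2 fold change -0.89 ± 0.17 (SE), adjusted p = 0.0025). Xrcc1 and H2ax passed after the correction, and Atr did not (adjusted p = 0.0547).

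Matrix genes changed in both directions, by group. Of 31 matricellular and small proteoglycan genes, 10 were called lower and 2 higher, with a median log2 fold change of -0.34. That was 38.7% called in all, close to the 38.9% of all tested genes. Against WT 2 and 3 the counts higher and lower were 6 and 13 (median -0.28), against WT 4 alone 5 and 14 (median -0.56), and after GC and length correction 3 and 14 (median -0.52). Thbs4, a thrombospondin of muscle and tendon, stood at 130.1, 182 and 137 CPM in WT and 15.9, 14.8 and 15.6 CPM in MlxKO (log2 fold change -3.19 ± 0.15 (SE), adjusted p = 7.91e-08). WT 4 lay between the other WT libraries for this gene, and the log2 fold change was -3.24 against WT 2 and 3 and -3.08 against WT 4. The collagen-binding proteoglycan gene Fmod stood at 52.1, 86.3 and 17.8 CPM in WT and 4.4, 5.86 and 4.39 CPM in MlxKO, periostin (Postn) at 1966, 2672 and 694 CPM in WT and 505, 359.7 and 375 CPM in MlxKO and osteoglycin (Ogn) at 1049.7, 811 and 571 CPM in WT and 343, 193 and 219 CPM in MlxKO. For these 3, WT 4 was the lowest WT library and still above MlxKO, and the log2 fold changes were -2.92 ± 0.40, -1.91 ± 0.36 and -1.69 ± 0.24 (SE). Of 28 collagen genes, 6 were called lower and 3 higher, a share of 32.1%, below that of all tested genes. Their counts higher and lower were 4 and 11 against WT 2 and 3, 4 and 4 against WT 4 alone, and 3 and 13 after GC and length correction. Of 28 matrix proteases and their inhibitors, 6 were called higher and 2 lower (median 0.19), a share of 28.6%, also below that of all tested genes. Their counts were 10 and 7 against WT 2 and 3, 14 and 4 against WT 4 alone, and 6 and 3 after GC and length correction. Among the collagen genes, Col18a1, the source of endostatin, was called higher, at 42.7, 44.1 and 22.8 CPM in WT and 74.8, 112 and 104 CPM in MlxKO (log2 fold change 1.42 ± 0.25 (SE), adjusted p = 0.00148). Of 14 contractile and myofibroblast genes tested, 6 were called higher and 1 lower (50% called in all), with a median log2 fold change of 0.25. After GC and length correction the counts were 5 and 3 and the median -0.0090. Myl9, a myosin light chain gene, was among those higher, at 0.97 ± 0.15. Actg2, an enteric actin gene, was the member called lower, at -1.21 ± 0.29.

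Several single genes of adhesion and growth factors had calls that did not depend on the WT library. Of 22 cadherin and contact genes tested, 6 were called higher and 3 lower (40.9% called in all). For 25 TGF-beta and BMP genes the counts higher and lower were 5 and 3 (32%), and for 14 IGF and insulin genes 2 and 2 (28.6%). The share over all tested genes was 38.9%. Icam1, an adhesion receptor for leukocytes, stood at 1.46, 2.61 and 6.94 CPM in WT and 23.3, 17.8 and 19.8 CPM in MlxKO (log2 fold change 2.36 ± 0.32 (SE), adjusted p = 4.06e-04), and Nectin2, of cell contacts, at 14.5, 16 and 13.8 CPM in WT and 32.8, 46.9 and 40.2 CPM in MlxKO (log2 fold change 1.37 ± 0.15 (SE), adjusted p = 1.13e-04). Tgfb2, a TGF-beta ligand, stood at 68.5, 77.7 and 73.5 CPM in WT and 36.7, 32.3 and 37.3 CPM in MlxKO (log2 fold change -1.03 ± 0.098 (SE), adjusted p = 4.39e-05). Among the binding proteins of insulin-like growth factors, Igfbp4 stood at 233, 309 and 156 CPM in WT and 65.2, 68.6 and 64 CPM in MlxKO and fell, while Igfbp5, at 34.1, 42.4 and 15.3 CPM in WT and 95, 85.5 and 84.9 CPM in MlxKO, and Igfbp7, at 41.9, 35.3 and 71.3 CPM in WT and 119.6, 131 and 125 CPM in MlxKO, rose. Their log2 fold changes were -1.75 ± 0.18, 1.61 ± 0.28 and 1.38 ± 0.20 (SE). Axin2 and Nkd2, which Wnt signals induce and which restrain the pathway, rose by 2.34 ± 0.31 and 2.2 ± 0.41. Wnt feedback genes were called at a share of 50%, against 38.9% of all tested genes. Over the 14 Wnt feedback genes tested, 5 were called higher and 2 lower, and the counts higher and lower were 8 and 3 against WT 2 and 3, 3 and 4 against WT 4 alone, and 2 and 2 after GC and length correction. Lats1, a kinase of the Hippo pathway, fell by 0.83 ± 0.13, and Ccn2, a target of YAP, by 0.99 ± 0.36. Of 24 Hippo regulators and YAP targets tested, 2 were called higher and 7 lower, a share of 37.5%, near that of all tested genes. These counts were 4 and 5 against WT 2 and 3, and 2 and 6 after GC and length correction. The median of this list was -0.067 against all WT libraries, 0.030 against WT 2 and 3 and -0.31 against WT 4 alone. Ccn2 rested on WT 4 in size, with 1183, 857 and 3274 CPM in WT and 649.8, 787 and 820.3 CPM in MlxKO and a log2 fold change of -0.43 against WT 2 and 3.

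Imprinted genes and lineage genes separated the WT libraries from each other as well as from MlxKO. Mest, a paternally expressed gene, stood at 1696, 1712 and 115 CPM in WT and 128, 101 and 107 CPM in MlxKO, so WT 4 lay at the level of MlxKO and the log2 fold change of -2.63 ± 0.74 became -3.92 against WT 2 and 3 and -0.042 against WT 4. Rian, a maternally expressed noncoding RNA, Peg10 and Plagl1 were lower against either kind of WT library, at 91.2, 82.2 and 40.5 CPM in WT and 21, 16.8 and 16.6 CPM in MlxKO, at 206, 167 and 127 CPM in WT and 47.1, 45.2 and 44.3 CPM in MlxKO, and at 395, 341 and 206 CPM in WT and 124, 75.6 and 89 CPM in MlxKO. Of 20 imprinted genes tested, 5 were called lower and 4 higher (45% called in all against 38.9% of all tested genes). The counts higher and lower of imprinted genes were 7 and 7 against WT 2 and 3, 1 and 5 against WT 4 alone, and 2 and 6 after GC and length correction. Pparg, the main factor of fat cell differentiation, stood at 26.6, 36.5 and 16.9 CPM in WT and 4.79, 3.0 and 3.32 CPM in MlxKO (log2 fold change -2.51 ± 0.25 (SE), adjusted p = 6.00e-05). Other markers of fat cells, such as Adipoq, Plin1 and Lep, were under 1 CPM in all 6 libraries, and the 7 fat cell markers, Pparg included, summed to 44 to 65.8 CPM in WT and 24.1 to 26.2 CPM in MlxKO. Thy1, a fibroblast surface marker, stood at 14.9, 21.1 and 123 CPM in WT and 147, 171 and 164 CPM in MlxKO, and Crabp1, a carrier of retinoic acid, at 0.937, 0.555 and 32.7 CPM in WT and 40.5, 58.9 and 55 CPM in MlxKO. WT 4 was nearer to MlxKO than to the other WT libraries for both, and Crabp1 did not pass against WT 4 alone (adjusted p = 0.125).

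**Figure D3:**
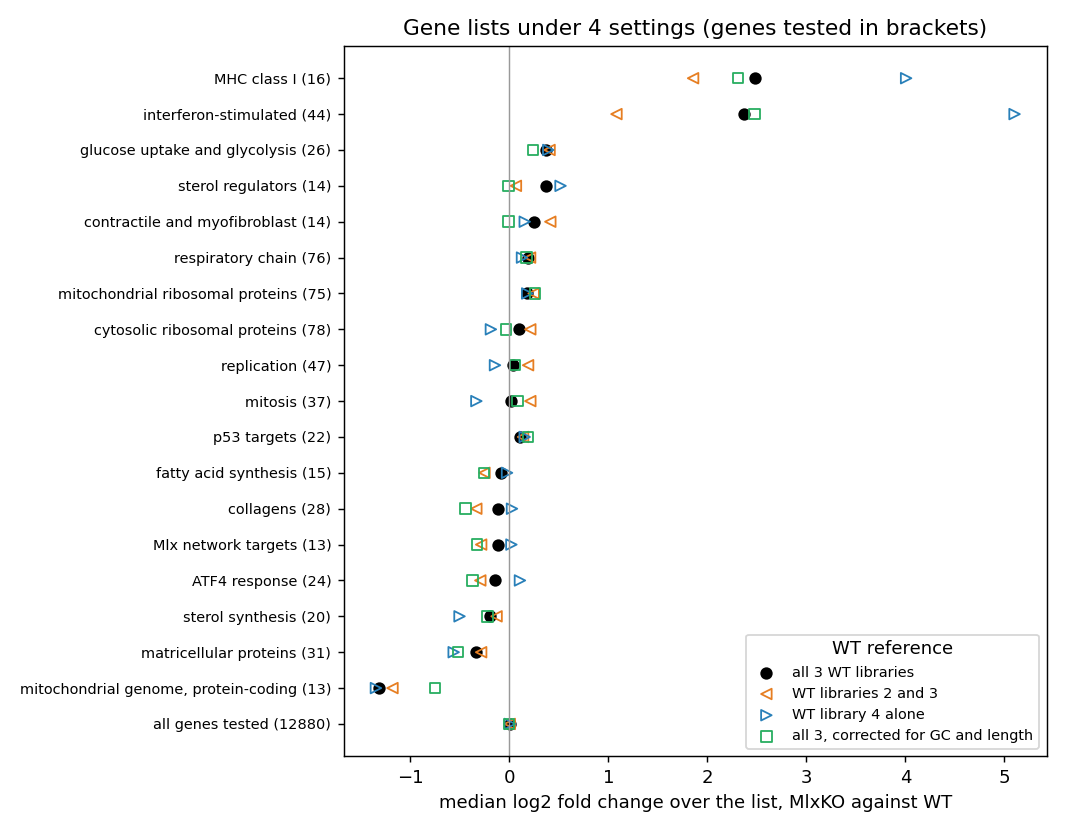
Median log2 fold change of MlxKO against WT (x axis) over 18 gene lists and over all tested genes (y axis, number of genes tested in brackets), with all WT libraries (black), WT 2 and 3 (orange), WT 4 alone (blue) and all WT libraries after GC and length correction (green). The interferon-stimulated and MHC class I lists lay to the right of all others in all 4 settings, the mitochondrial genome list lay to the left, and the remaining lists lay closer to 0.

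The loss of Mlx could be compared in a second pair of immortalized groups that shares no library with the first, DKO against MycKO. There 3788 genes were called (29.4%). Of the 5014 genes called in MlxKO against WT, 285 were called in the same direction there, which was 5.68% of this set and 7.52% of the other. A larger number, 1425, were called in the opposite direction. The deviation from the mean of the 12 libraries correlated with GC content at 0.071, 0.28 and 0.22 in MycKO and 0.25, -0.23 and -0.23 in DKO. The part of base composition in the opposite calls was not tested. The difference between both effects passed the test for 6108 genes (47.4%), 3907 of which were called in MlxKO against WT. After GC and length correction, 4378 genes were called in DKO against MycKO, and the difference passed for 5362. The interferon-stimulated list, with 34 of 44 genes higher in MlxKO against WT, had 1 higher and 1 lower in DKO against MycKO, and 16 had a lower fold change there by the interaction test. Glycolysis genes, mostly higher here, had 2 called higher and 9 lower there, and 1 higher and 10 lower in primary cells. Among the genes with the largest such differences were Cdsn, Sfrp2 and Malrd1, which fell in MlxKO and rose in DKO, and Crabp1 and Thy1, which rose in MlxKO and fell in DKO. Sfrp2, for example, was 29.1 ± 1.96 CPM in MycKO cells, against 611 ± 11.4 CPM in the double knockout, and Thy1 636 ± 3.45 and 10.4 ± 0.26 CPM (SD, n = 3).

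Primary MlxKO against primary WT was compared on separate libraries, with 8.88% of genes called, 3.75% higher and 5.14% lower. Among 12402 genes tested in both kinds of cell, 4855 were called in immortalized and 1110 in primary cells. Of these, 146 changed in the same direction, 3.01% of the immortalized and 13.2% of the primary set, and 284 in the opposite direction. Whether these numbers differ from those of unrelated calls was not tested. By the smaller of both changes, the genes with the largest shared effect were Txnip, Arrdc4, Ptn, Angptl4 and Mtss1. Angptl4, an inhibitor of lipoprotein lipase, stood at 23.2, 27.7 and 12.7 CPM in WT and 9.0, 9.21 and 8.37 CPM in MlxKO in the immortalized cells (log2 fold change -1.11 ± 0.23 (SE), adjusted p = 0.00364), with a log2 fold change of -1.46 in primary cells, and did not pass against immortalized WT 4 alone (adjusted p = 0.0729). Mtss1, an actin-binding membrane protein, stood at 54, 40.9 and 30.7 CPM in WT and 6.97, 7.06 and 7.71 CPM in MlxKO (log2 fold change -2.34 ± 0.19 (SE), adjusted p = 1.18e-05), with -0.94 in primary cells, and Ptn, the growth factor pleiotrophin, at 27.9, 33.1 and 55.6 CPM in WT and 141, 123 and 131 CPM in MlxKO, with 1.79 and 1.11. In DKO against MycKO these 3 went the other way, at 0.96, 1.1 and -4.2. The interferon-stimulated list had 3 genes called higher and 4 lower of 43 in primary cells. In sterol synthesis, 14 of 20 genes were called higher and 0 lower in primary MlxKO.

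Across these 3 comparisons, 35 genes were called in the same direction each time, 15 higher and 20 lower. In MlxKO against WT, DKO against MycKO, and primary MlxKO against WT, 19.1%, 14.8% and 3.75% of all tested genes were called higher. The shares called lower were 19.9%, 14.6% and 5.14%. Whether 35 is more than unrelated calls would share was not tested. Txnip had the largest change of the 35 genes in each comparison, with log2 fold changes of -3.52, -4.23 and -4.13 in the order just given. In the same order Arrdc4 gave -3.3, -1.91 and -2.73. Mlx itself gave -0.71, -0.56 and -0.76. The remaining genes were named after their values were seen. Pi15, a secreted peptidase inhibitor, stood at 9.84, 10.54 and 15.2 CPM in WT and 3.92, 2.65 and 2.09 CPM in MlxKO and gave -1.73, -0.96 and -0.76. Samd5, a sterile alpha motif protein, stood at 13.8, 15.8 and 15.2 CPM in WT and 5.37, 4.05 and 3.06 CPM in MlxKO and gave -1.65, -1.62 and -0.73. Thbs2, a thrombospondin, gave -1.16, -1.31 and -0.25, and among those higher, Ly6c1, a surface protein, gave 2.06, 1.8 and 0.59.

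**Figure D4:**
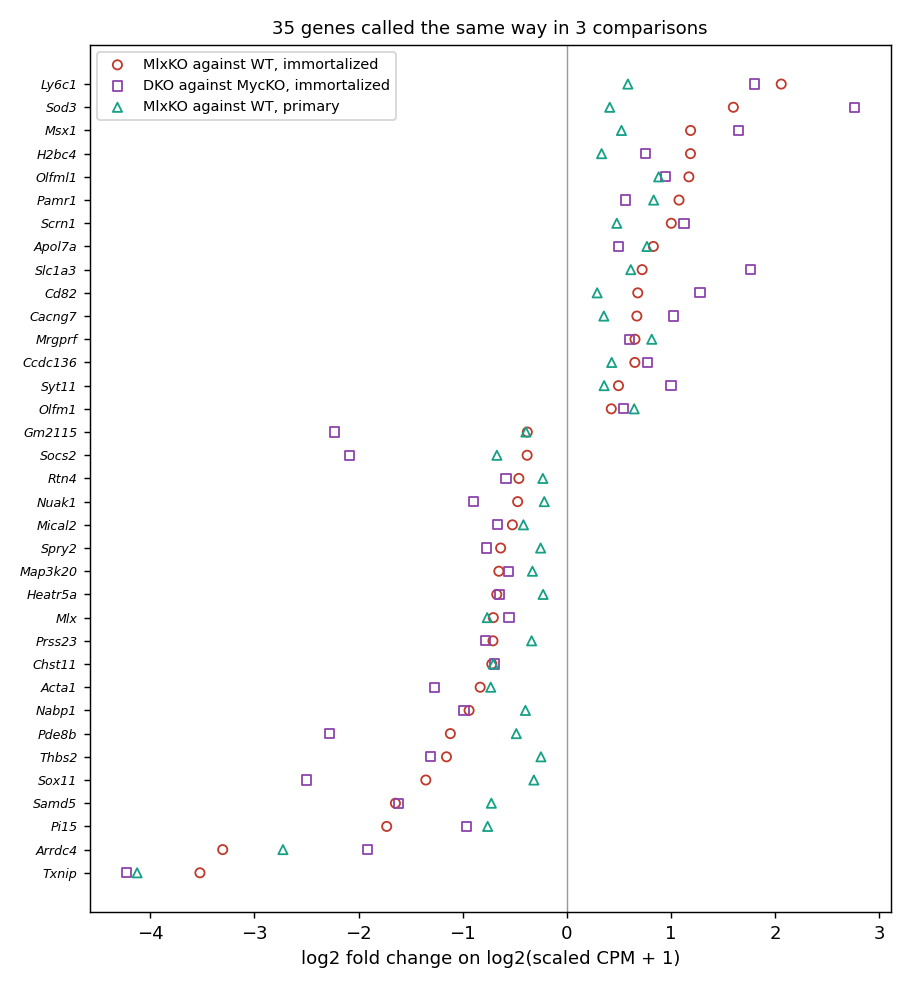
Log2 fold changes (x axis) of the 35 genes called in the same direction in immortalized MlxKO against WT (red circles), immortalized DKO against MycKO (purple squares) and primary MlxKO against WT (green triangles), ordered by the first. Txnip and Arrdc4 lay at -1.91 or below in all 3, and the other genes lay closer to 0 in at least 1 of them.

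By chromosome, the median log2 fold change ran from -0.22 on chromosome 1 to 0.21 on chromosome 15. These medians ranked with the median GC content of the genes on each autosome (Spearman rho = 0.88 over 19 autosomes, which share the same libraries). After GC and length correction they ran from -0.13 to 0.11, the lowest on chromosome 10 and the highest on chromosome 19.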

How the data were processed

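Poly-A RNA of 12 immortalized and 12 primary fibroblast cultures was sequenced as directional libraries. The authors counted reads per gene with CLC on GRCm39 and deposited CPM rescaled between libraries, a signal whose nonzero values were whole multiples of 1 read in 100% of cases (tolerance 0.01), so that reads could be recovered. Genes at 1 CPM or more in at least 3 of the 12 immortalized libraries were fitted with limma 3.58.1 (R 4.3.3) on log2(CPM + 1) with a trended prior, the 4 immortalized groups in one fit and the primary table apart. Fold changes are on this scale and understate changes of low genes. edgeR 4.0.16 and DESeq2 1.42.0 on recovered reads, other scalings, filters and pseudocounts, and each library left out were alternatives. Correction by loess on GC content and length of the longest transcript, and WT 4 as the only WT library, were chosen after the data were seen. With 1 WT library, its spread is assumed to be that of the other groups. Scripts were tested on simulated data.

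Genes, lists and members were chosen with earlier results of these data known. The text names members of the Mlx and Myc lists, the 10 largest rises and falls with at least 5 CPM in the higher group, up to 4 called members per list, the 3 largest interactions each way and the 5 largest changes shared with primary cells. B2m, Erap1, Hk2, Ifih1, Irf1, Irf7, Irf9, Isg15, Ldha, Nlrc5, Pkm, Slc2a1, Srebf2, Stat2, Tap1 and Tap2 were added as steps of their pathways after their values were seen. Some genes this rule names are not reported here. Promoters came from RefSeq on GRCm38.p6.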

Additional observations from a re-analysis of the deposited data

Results flagged for a closer look

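The change from WT to MlxKO differed from the change from MycKO to DKO. The log2 fold change of DKO against MycKO minus that of MlxKO against WT, tested as an interaction in the same limma fit, passed an adjusted p of 0.05 for 6108 of 12880 genes (47.4%), and the genes of the text that passed are given here with that difference on the log2 scale in brackets. WT library 4, which stood apart from the other WT libraries, is part of every one of these values. The labels give no separate derivations within a group, so a line-specific change cannot be told apart from an effect of Myc. After GC and length correction, 5362 genes passed, and the part of base composition in these differences was not tested.

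Antiviral genes were Oas1g (-4.13), Oas2 (-3.63), Oas3 (-4.62), Zbp1 (-5.27), Ifi27l2a (-5.41), Isg15 (-3.33), Irf1 (-1.89), Irf7 (-4.69) and Gbp9 (-3.66). Antigen presentation genes were B2m (-1.12), Tap1 (-2.16), Tap2 (-2.03), Psmb8 (-3.85), Nlrc5 (-2.6), H2-Q4 (-3.23), H2-Q5 (-4.56), H2-Q6 (-5.36) and H2-Q7 (-4.88), and the trimming enzyme gene Erap1 (1.1). Chemokine and adhesion genes were Ccl5 (-4.81), Cxcl10 (-3.42), Icam1 (-3.23), Nectin2 (-2.68) and Cd34 (-4.81).

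Metabolic genes with a negative difference were Pfkp (-1.46), Eno3 (-2.09), Pkm (-0.75), Ldha (-0.63), Slc16a3 (-1.8), Pmvk (-1.49), Mvd (-1.89) and Srebf2 (-0.97). Those with a positive one were Hmgcs1 (0.78), Hsd17b7 (0.89), Insig1 (1.14), Elovl6 (0.99), Scd1 (0.93), Scd2 (0.62), Me1 (0.94) and Angptl4 (2.06). In the amino acid response the values were Asns (0.88), Aldh1l2 (2.11), Vldlr (2.06) and Ddit4 (-1.96). Arrestin-domain genes had positive differences, Arrdc4 (1.39) and Arrdc3 (1.8), and Txnip did not pass. Mitochondrial and ribosomal genes were mt-Nd5 (2.66), Uqcr11 (-2.46), Cox5b (-2.08), Rpl8 (-1.78) and Rpl28 (-1.76).

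In cell division and damage response the values were Mxd3 (-1.12), Ccnd3 (-1.57), Cdkn1c (-2.84), Cdkn2b (-1.46), Pola2 (-1.01), Bax (-1.13), H2ax (-1.41), Xrcc1 (-1.49), Btg2 (2.62) and Atr (1.24). Matrix and contractile genes were Thbs4 (6.1), Fmod (5.88), Ogn (6.59), Col18a1 (-2.15), Myl9 (-1.76) and Actg2 (-2.22). Signalling genes were Sfrp2 (7.65), Axin2 (-3.37), Nkd2 (-4.43), Tgfb2 (1.64), Lats1 (1.04), Igfbp4 (3.67), Igfbp5 (-5.7), Igfbp7 (-3.06), Ptn (-5.99), Il1rn (6.99), Mtss1 (3.45), Nfkb2 (-2.14) and Fnip1 (1.14). Imprinted, lineage and sex-linked genes were Mest (6.91), Peg10 (1.94), Plagl1 (3.52), Pparg (4.06), Pitx1 (3.12), Pcdh11x (4.67), Crabp1 (-10.27), Thy1 (-8), Xist (3.39) and Ddx3y (-4.52). The remaining values were Cdsn (8.14), Commd1b (6.46) and Malrd1 (7.06).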

How the results depend on the processing

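No paired analysis was possible because nothing links the library numbers of the column headings with the replicates named in the labels. The counts of called genes in MlxKO against WT ranged from 2884 (without MlxKO 6) to 6033 (without WT 4) when 1 library was left out, with 3180 without MlxKO 7. A minimum absolute log2 fold change of 1 left 866 genes in MlxKO against WT, 1415 in DKO against MycKO, 3186 in the interaction and 53 in primary cells. In primary cells, GC and length correction raised the count to 1985, and leaving out 1 library gave 627 to 738 where it changed the count by more than 1.5 times and 1466 at the most (627 without WT 1, 630 without WT 2, 738 without MlxKO 6, 1466 without WT 3). edgeR called 4925 and DESeq2 5311 genes in MlxKO against WT on the recovered reads, and 4707 were called by all 3 tools.

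The fall of Mlx missed the threshold against WT 4 alone (log2 fold change -0.55). Against WT 4 alone the sign turned for Myc (-1.17), Ddx3y (-1.15) and Erap1 (0.77), and, among lists with at least as many genes called as not called and a median beyond the spread of the library medians, for the median of the Wnt feedback list (-0.016, and -0.052 without WT 2 to 0.71 without WT 4). After GC and length correction it turned for Arrdc3 (0.47), Srebf2 (-0.00025) and, among such lists, the medians of the sterol regulator (-0.0083) and contractile lists (-0.0090). Without these conditions, the median changed sign for 10 of 41 lists against WT 4 alone, among them ATF4 response (-0.15 to 0.11), mitosis (0.015 to -0.33), replication (0.04 to -0.15), fatty acid oxidation (-0.15 to 0.13) and cytosolic ribosomal proteins (0.10 to -0.19), for 10 after the correction, among them pentose phosphate (0.13 to -0.10) and TGF-beta and BMP genes (0.26 to -0.0094), and for 10 with every library scaled to the same total. The cause was not tested. Of 1966 values for 116 genes over these settings, 1872 kept direction and side of the threshold, 77 no longer passed and 12 newly passed. Depth limits genes near 3 reads (0.145 to 0.183 CPM).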
